A study of Danio rerio with 3 samples.

Results

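The 9 genes described here encode cyclins of types A, B, D and E: ccna1, ccna2, ccnb1, ccnb2, ccnb3, ccnd1, ccnd2a, ccne1 and ccne2. They were taken by symbol from a zebrafish table in which 25386 genes had values, and each symbol matched 1 row. Transcript levels had been measured by RNA sequencing of whole, dechorionated AB-strain embryos, with 3 libraries and 1 library per group. One library came from embryos 7 hours post fertilization (hpf) with dome morphology that were maternal-zygotic double mutants (MZ nup85-/-;nup133-/-). Another came from embryos of the same mutant genotype at 4.3 hpf, with the stage tag 1k. The third library came from wild-type (WT) embryos at 4.3 hpf with dome morphology, when the yolk domes upward beneath the blastoderm late in the blastula period. In maternal-zygotic mutants the mother's supply to the egg and the embryo's own genome both carry the mutations, here in a pair of genes for scaffold subunits of the nuclear pore. The labels do not describe the alleles or say how many embryos were pooled per library.

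Cyclins are the regulatory subunits that switch on the cyclin-dependent kinases (Cdks), and many of them are made and destroyed within each cell cycle. Type B and type A cyclins drive entry into mitosis, A cyclins also act in S phase, E cyclins start DNA replication with Cdk2, and D cyclins work with Cdk4 and Cdk6 in G1, the phase in which growth signals are read. The early zebrafish embryo divides rapidly and synchronously on transcripts laid down by the mother. Gap phases appear later, around the midblastula transition, when the embryo's own genome is switched on. The cyclins were therefore set out by the general role of their type, the A, B and E types of the cleavage cycles beside the D types of G1. Whether each gene of a type has that role in these embryos was not tested.

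Values are FPKM, which count sequenced fragments relative to transcript length and library size, so that levels of different genes can be compared. Log2 ratios are of FPKM + 1, and a gene counted as apart when that ratio was at least 2-fold. All 9 cyclins were among the 14306 measured genes, those that averaged 1 FPKM or more across libraries. The FPKM summed to between 397357 and 431333 per library, and absolute depth cannot be read from the table. The mutated gene nup133 stood at 1.91 FPKM in MZ 7 hpf and 0.31 in MZ 4.3 hpf, against 11.7 in WT. The other, nup85, stood at 9.55 FPKM in MZ 7 hpf and 10.35 in MZ 4.3 hpf, against 13.2 in WT, so its level does not check the genotype. No group has a replicate, so no difference could be checked against replicate spread and none was tested. At 4.3 hpf genotype differs together with the stage tag, and at dome it differs together with age, and these cannot be told apart. The 3 comparisons share libraries, so they are not independent of each other.

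Most of the A, B and E cyclins were abundant transcripts in every library. In contrast ccnd1 and ccne2, of types D and E, were high in the MZ 7 hpf library, low in the MZ 4.3 hpf library and between these in WT. Of the type B cyclins, ccnb2 had a different order of libraries from ccnb1, and ccnb3 was highest in the MZ 7 hpf library. The D cyclins differed from each other, since ccnd2a was lowest where ccnd1 was highest. In whole embryos a smaller share of cells with a transcript and less of it per cell cannot be told apart.

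**Figure D1:**
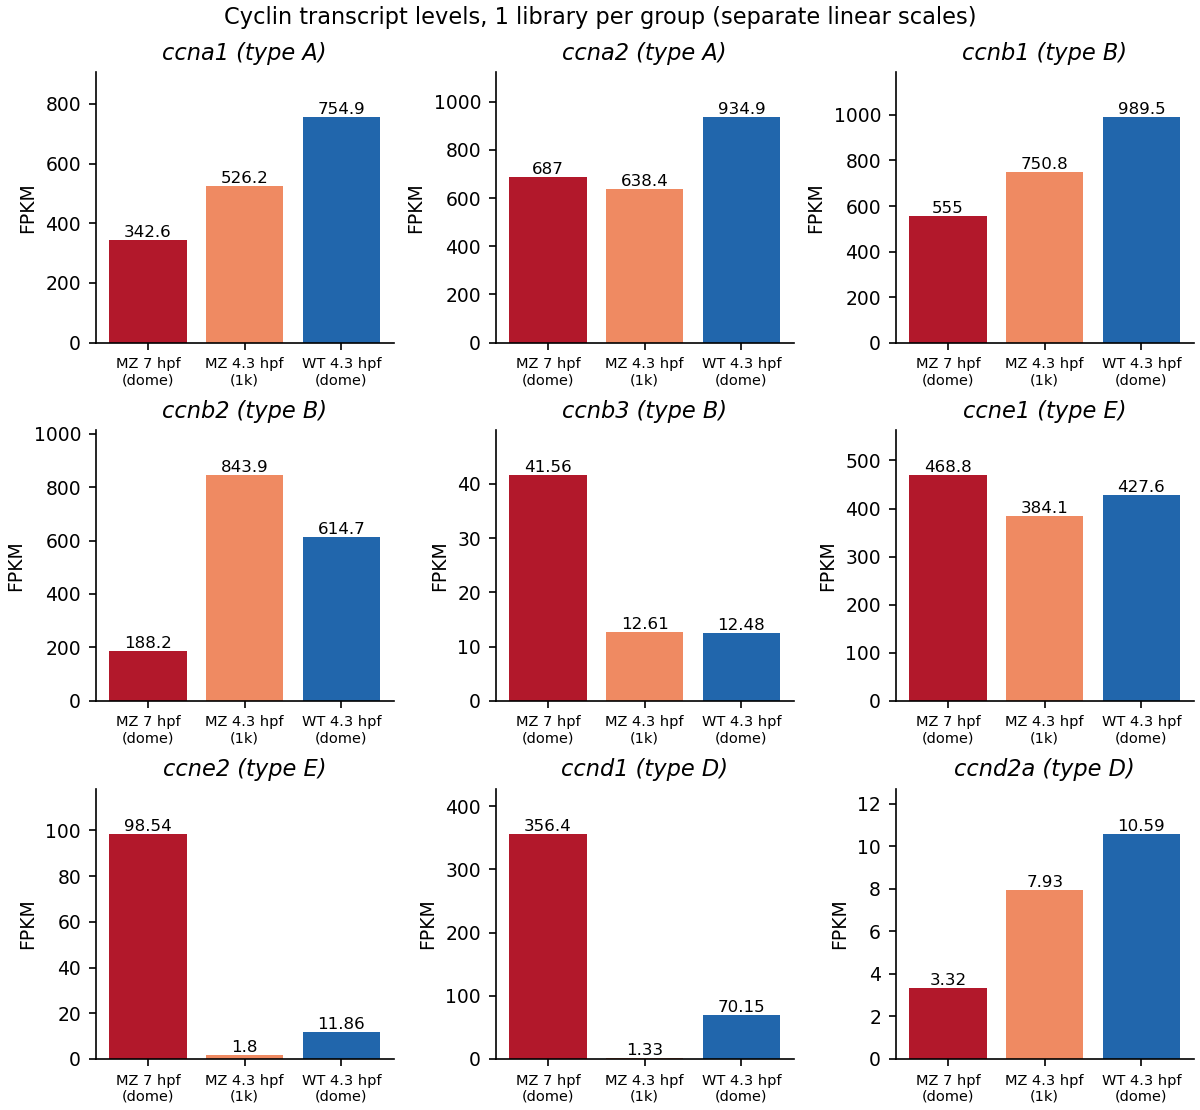
Bars give the FPKM of each of the 9 cyclin genes in the MZ 7 hpf, MZ 4.3 hpf and WT libraries, 1 library each, on a linear scale of its own per gene. The bars of ccnd1 and ccne2 are tallest in the MZ 7 hpf library (356 and 98.5 FPKM) and nearly vanish in the MZ 4.3 hpf library (1.33 and 1.80 FPKM), while ccne1 is nearly level.

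The B cyclins activate Cdk1 to bring cells into mitosis. Transcripts of ccnb1 (gene 58025) stood at 555 FPKM in the MZ 7 hpf library, 751 in the MZ 4.3 hpf library and 989 in WT, where it was the most abundant of the 9. Those of ccnb2 (gene 368316) stood at 188 FPKM in the MZ 7 hpf library, 844 in the MZ 4.3 hpf library and 615 in WT. The MZ 4.3 hpf library thus had the most ccnb2, and by level ccnb2 ranked 2 among all measured genes there, against 330 in the MZ 7 hpf library and 38 in WT. Its log2 ratio was -1.70 for MZ 7 hpf over WT and -2.16 for MZ 7 hpf over MZ 4.3 hpf, a 4.48-fold lower FPKM as deposited in the later library. For ccnb1 the log2 ratio was -0.83 for MZ 7 hpf over WT and -0.44 for MZ 7 hpf over MZ 4.3 hpf, both inside 2-fold.

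The balance of ccnb2 and ccnb1 within a library does not depend on how the libraries are scaled. There was 0.339 FPKM of ccnb2 per FPKM of ccnb1 in the MZ 7 hpf library, 1.12 in the MZ 4.3 hpf library and 0.621 in WT. The WT library therefore lay between the mutant libraries. In FPKM as deposited, ccnb2 exceeded ccnb1 in the MZ 4.3 hpf library but in neither of the others. Without replicates the order of values as close as those in MZ 4.3 hpf cannot be settled. The third B cyclin, ccnb3 (gene 767751), was a minor transcript, at 41.6 FPKM in the MZ 7 hpf library, 12.6 in the MZ 4.3 hpf library and 12.5 in WT. It was higher in the MZ 7 hpf library alone, by 1.66 on the log2 scale over WT and 1.64 over MZ 4.3 hpf, and it made up 5.30% of the type B FPKM there against 0.785% in MZ 4.3 hpf and 0.772% in WT.

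The A cyclins pair with Cdk2 and Cdk1 in S phase and at mitotic entry. In mouse the ccna1 ortholog is known from male germ cells, and the ccna2 ortholog is the form of dividing somatic cells. Transcripts of ccna1 (gene 404206) stood at 343 FPKM in the MZ 7 hpf library, 526 in the MZ 4.3 hpf library and 755 in WT. Those of ccna2 (gene 192295) stood at 687 FPKM in the MZ 7 hpf library, 638 in the MZ 4.3 hpf library and 935 in WT. WT was highest for both genes, and the mutant libraries differed from each other more in ccna1 (log2 ratio of MZ 7 hpf over MZ 4.3 hpf -0.62) than in ccna2 (0.11, a value whose sign turned under 2 of the scalings tried). Only ccna1 in MZ 7 hpf over WT passed 2-fold among the A cyclin ratios, at -1.14. Within a library there was 0.499 FPKM of ccna1 per FPKM of ccna2 in MZ 7 hpf, against 0.824 in MZ 4.3 hpf and 0.807 in WT, so this balance was close between the 4.3 hpf libraries and lower in the 7 hpf library.

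The E cyclins bind Cdk2 and start DNA replication. Transcripts of ccne1 (gene 30188) were the steadiest of the 9, at 469 FPKM in the MZ 7 hpf library, 384 in the MZ 4.3 hpf library and 428 in WT. All 3 of its log2 ratios lay between -0.15 and 0.29. Its paralog ccne2 (gene 415165) stood at 98.5 FPKM in the MZ 7 hpf library, 1.80 in the MZ 4.3 hpf library and 11.9 in WT. As deposited these values were 54.7-fold apart between the mutant libraries, and WT lay between them. The size of that fold rests on the low value in MZ 4.3 hpf. The log2 ratios of ccne2 were -2.20 for MZ 4.3 hpf over WT, 2.95 for MZ 7 hpf over WT and 5.15 for MZ 7 hpf over MZ 4.3 hpf. Thus ccne2 made up 17.4% of the type E FPKM in the MZ 7 hpf library, against 0.466% in the MZ 4.3 hpf library and 2.70% in WT.

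The D cyclins bind Cdk4 and Cdk6, which phosphorylate the retinoblastoma (Rb) proteins. Transcripts of ccnd1 (gene 30222) stood at 356 FPKM in the MZ 7 hpf library, 1.33 in the MZ 4.3 hpf library and 70.15 in WT. The gene was the least abundant of the 9 in the MZ 4.3 hpf library, the sixth in order in WT and the fourth in the MZ 7 hpf library, where it stood close to ccna1. Between the mutant libraries its FPKM as deposited was 268-fold apart. Its log2 ratio of 7.26 for MZ 7 hpf over MZ 4.3 hpf ranked 18 from the highest among the 14306 measured genes, and its ratio of -4.93 for MZ 4.3 hpf over WT ranked 46 from the lowest. For MZ 7 hpf over WT the log2 ratio was 2.33.

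The paralog ccnd2a (gene 799608) had low levels throughout, at 3.32 FPKM in the MZ 7 hpf library, 7.93 in the MZ 4.3 hpf library and 10.6 in WT. Its order of libraries was that of ccna1 and ccnb1, highest in WT and lowest in MZ 7 hpf, and the reverse of ccnd1 between the mutant libraries. Its log2 ratios were -0.38 for MZ 4.3 hpf over WT, -1.42 for MZ 7 hpf over WT and -1.05 for MZ 7 hpf over MZ 4.3 hpf. The last of these came inside 2-fold with a pseudocount of 5 FPKM (-0.64) and under 2 of the scalings tried, and the ratio to WT did so with that pseudocount (-0.91). There was 107 FPKM of ccnd1 per FPKM of ccnd2a in the MZ 7 hpf library, 0.168 in the MZ 4.3 hpf library and 6.62 in WT. Of the summed FPKM of these 2 D members, ccnd2a thus made up 85.6% in the MZ 4.3 hpf library and ccnd1 99.1% in the MZ 7 hpf library. A further D cyclin that is not a member, ccnd3, is left out of these shares. It stood at 8.03 FPKM in MZ 7 hpf and at 7.42 in MZ 4.3 hpf, where it was close to ccnd2a.

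Set out by type, the cyclins divided less cleanly than their roles. The 2 D members, ccnd1 and ccnd2a, together took 13.1% of the summed FPKM of the 9 genes in the MZ 7 hpf library, 0.292% in the MZ 4.3 hpf library and 2.11% in WT. The 7 genes of types A, B and E took 86.9% in MZ 7 hpf, 99.7% in MZ 4.3 hpf and 97.9% in WT. Type B took 28.6% in the MZ 7 hpf library, against 50.8% in MZ 4.3 hpf and 42.2% in WT. However, ccne2 of type E had the same order of libraries as ccnd1, and ccnd2a of type D that of ccna1 and ccnb1. The 9 genes together took 0.636% of all FPKM in the MZ 7 hpf library, 0.797% in the MZ 4.3 hpf library and 0.901% in WT.

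**Figure D2:**
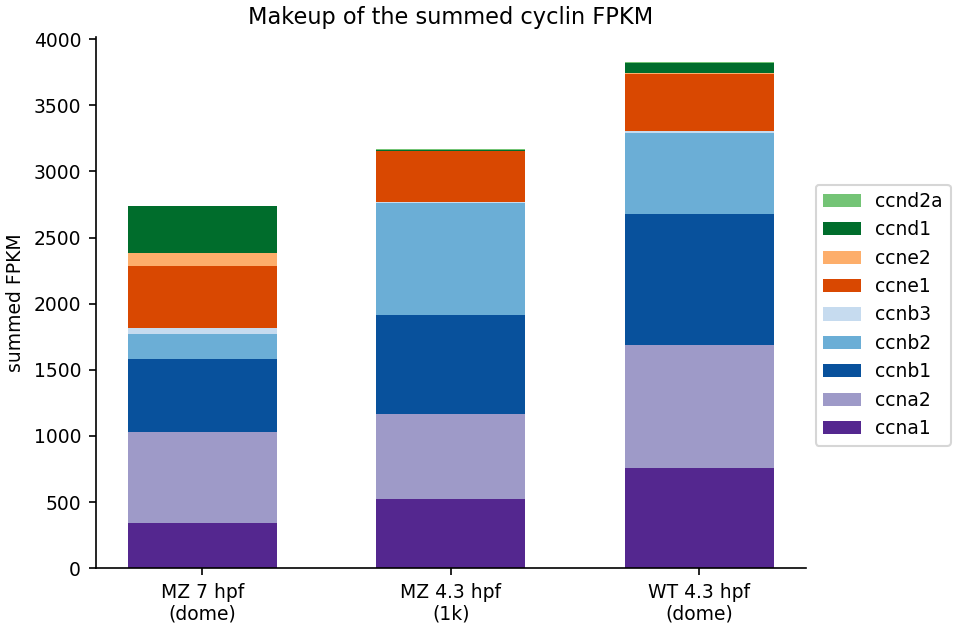
Each bar stacks the FPKM of the 9 cyclin genes in 1 library, MZ 7 hpf, MZ 4.3 hpf or WT, with summed FPKM on the vertical axis. The dark green ccnd1 segment is visible in the MZ 7 hpf and WT bars, and the light blue ccnb2 segment is tallest in the MZ 4.3 hpf bar.

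The order of levels within a library had its largest step below ccne1 in both 4.3 hpf libraries. In WT, ccnb1, ccna2, ccna1, ccnb2 and ccne1 ran from 989 down to 428 FPKM. The next gene, ccnd1, was 6.10-fold below ccne1 and 5.62-fold above ccnb3. In the MZ 4.3 hpf library the same 5 genes ran from 844 (ccnb2) to 384 FPKM (ccne1), and the next, ccnb3, was 30.5-fold below. In the MZ 7 hpf library the steps between neighbours from ccna2 (687 FPKM) down to ccnb3 (41.6) were at most 2.37-fold, and ccnd2a followed 12.5-fold lower. Without replicates no spread is known by which to judge these steps, and the order of close neighbours cannot be settled. Such were ccnd1 and ccna1 in the MZ 7 hpf library (1.04-fold), ccnb1 and ccna2 in WT (1.06-fold) and ccnb2 and ccnb1 in MZ 4.3 hpf (1.12-fold).

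For MZ 4.3 hpf over WT, 2 of 9 cyclins (ccnd1 and ccne2) were 2-fold or more lower and none (0) was higher, where 9.6% of all measured genes were lower and 16.6% higher. The median log2 ratio of the 9 was -0.40, beside 0.16 for all measured genes. For MZ 7 hpf over WT, 3 of 9 were higher (ccne2, ccnd1 and ccnb3) and 3 lower (ccnb2, ccnd2a and ccna1), beside 13.9% and 12.5% of all measured genes, with a median log2 ratio of -0.44 for the cyclins and -0.05 for all measured genes. For MZ 7 hpf over MZ 4.3 hpf, 3 of 9 were higher (ccnd1, ccne2 and ccnb3), beside 13.8% of all measured genes. There 2 of 9 were lower (ccnb2 and ccnd2a), which is the background share of 22.2%. The medians of that comparison were 0.11 for the cyclins and -0.21 for all measured genes. With 9 genes 1 gene more or less moves these shares widely, so the counts describe the genes named and not cyclins as a class. Scaling by the median of ratios moved the median of all genes to -0.01 for MZ 4.3 hpf over WT and 0.02 for both other comparisons. Scaling on proteasome genes moved it to 0.22 for MZ 4.3 hpf over WT, -0.45 for MZ 7 hpf over WT and -0.67 for MZ 7 hpf over MZ 4.3 hpf. As deposited, the proteasome genes had median log2 ratios of 0.51 for MZ 7 hpf over WT and 0.39 for MZ 7 hpf over MZ 4.3 hpf. Of these 35 genes, 10 were at least 2-fold higher in MZ 7 hpf than in WT, beside 13.9% of all measured genes. This scaling therefore lowers the values of MZ 7 hpf. The directions of ccnd1, ccne2, ccnb2, ccna1, ccnb1 and ccnd2a held in each comparison under all 4 scalings. Those of ccna2, ccnb3 and ccne1 turned in at least 1 comparison under at least 1 scaling.

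**Figure D3:**
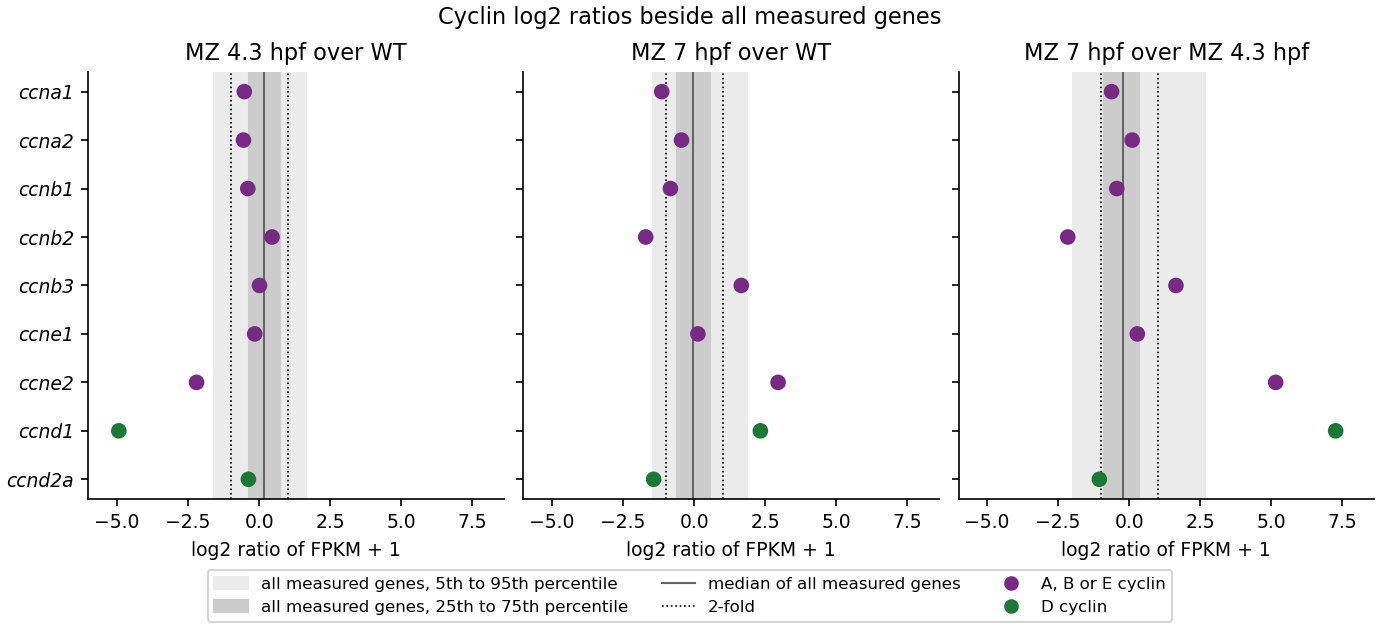
Points give the log2 ratio of FPKM + 1 of each cyclin in the 3 comparisons (purple for types A, B and E, green for type D), over grey bands that hold the middle of all 14306 measured genes. The ccnd1 point lies far left in MZ 4.3 hpf over WT (-4.93) and far right in MZ 7 hpf over MZ 4.3 hpf (7.26), and ccne1 stays inside the dotted 2-fold lines in all 3 panels.

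Markers of the enveloping layer, the first epithelium to form around the blastoderm, varied in the same order of libraries as ccnd1 and ccne2. Of the 9 listed marker symbols, which include an alternative symbol for krt18, 8 had a row. Their FPKM summed to 3022 in the MZ 7 hpf library, 5.13 in the MZ 4.3 hpf library and 163 in WT. All 8 were at least 2-fold higher in MZ 7 hpf than in WT and in MZ 4.3 hpf, beside 13.9% and 13.8% of all measured genes. At least 2-fold lower in MZ 4.3 hpf than in WT were 6 of 8, beside 9.6%. Not among these were cyt1 and evpla, the latter listed at 0 in MZ 4.3 hpf against 0.09 FPKM in WT. Also listed at 0 in MZ 4.3 hpf was krt92, against 2.28 FPKM in WT. Some markers averaged 1 FPKM or more only through the MZ 7 hpf library, such as cyt1. It stood at 55.5 FPKM in MZ 7 hpf, 0.04 in MZ 4.3 hpf and 0.21 in WT. The part of these markers in the cyclin values was not tested.

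For each cyclin the genes with the nearest profile were sought among 6500 named genes that averaged 10 FPKM or more, by the distance between log2 values centred on their mean over the 3 libraries. With only 3 values per gene many genes come close, so a near profile is a description. Nearest to ccnd1 were hspb1, which encodes a small heat shock protein (1630 FPKM in the MZ 7 hpf library, 7.11 in MZ 4.3 hpf and 295 in WT), then the ventral homeobox repressor gene ved and sult6b1, at distances of 0.281, 0.330 and 0.356. Nearest to ccne2 were the annexin gene anxa1a (52.8 FPKM in MZ 7 hpf, 0.27 in MZ 4.3 hpf and 4.24 in WT), the sodium pump subunit gene atp1b1a and mgll, which encodes a lipase, at 0.291, 0.292 and 0.317. All of these neighbours of ccne2 reached the average of 10 FPKM only through their level in the MZ 7 hpf library. The choice of neighbours therefore depends in part on that library. The other 7 cyclins had closer neighbours. Nearest to ccnb2 were the Bmp receptor gene bmpr1ba (5.0 FPKM in MZ 7 hpf, 26.2 in MZ 4.3 hpf and 18.4 in WT), tbc1d25 and ythdf3, a reader of methylated mRNA, at 0.022 to 0.026. Nearest to ccnb3 was tmcc3 (47.4 FPKM in MZ 7 hpf, 14.5 in MZ 4.3 hpf and 14.6 in WT) at 0.018, and nearest to ccnd2a was cdc16, a subunit gene of the complex that marks cyclins for destruction (22.7 FPKM in MZ 7 hpf, 47.4 in MZ 4.3 hpf and 62.7 in WT), at 0.015.

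For the kinases that cyclins activate and related genes, every log2 ratio of FPKM + 1 stood inside 2-fold before any scaling. Without the pseudocount, cks2 was more than 2-fold apart, at 1.92 FPKM in MZ 7 hpf against 0.61 in WT. So was cdk6 between MZ 4.3 hpf and WT. Of 8 measured Cdk, Cks and related genes, 0 were at least 2-fold higher or lower in any of the 3 comparisons, where between 9.6% and 22.2% of all measured genes were, by comparison and direction. After scaling on the proteasome genes 3 of 8 were lower in MZ 7 hpf over MZ 4.3 hpf, beside 36.1% of all measured genes, which is about the same share. Transcripts of cdk1, the mitotic kinase, stood at 21.5 FPKM in the MZ 7 hpf library, 11.5 in MZ 4.3 hpf and 15.6 in WT, and those of cdk2 at 56.4 in MZ 7 hpf, 79.1 in MZ 4.3 hpf and 68.8 in WT. The partners of the D cyclins were low in all libraries, with cdk4 at 5.09 FPKM in MZ 7 hpf, 4.21 in MZ 4.3 hpf and 7.54 in WT. For cdk6 these were 5.03 FPKM in MZ 7 hpf, 8.68 in MZ 4.3 hpf and 3.92 in WT, and its log2 ratio of 0.98 for MZ 4.3 hpf over WT lay just inside 2-fold. The most abundant after cdk2 was cks1b, a small subunit of Cdk complexes, at 65.0 FPKM in MZ 7 hpf, 50.9 in MZ 4.3 hpf and 43.7 in WT. In every library the FPKM of ccnb1 exceeded that of cdk1.

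The Cdk inhibitors, which restrain cyclin complexes, had among their members the same order of libraries as ccnd1. Only 5 of 9 were measured, and the other 4 reached at most 0.79 FPKM in any library. The Kip family gene cdkn1ca stood at 66.2 FPKM in the MZ 7 hpf library, 0.70 in MZ 4.3 hpf and 28.6 in WT, and its paralog cdkn1cb at 30.7 in MZ 7 hpf, 0.35 in MZ 4.3 hpf and 12.5 in WT. The p53 target cdkn1a stood at 19.5 FPKM in MZ 7 hpf, 1.76 in MZ 4.3 hpf and 4.74 in WT. These 3 of 5 were the ones at least 2-fold lower in MZ 4.3 hpf than in WT, beside 9.6% of all measured genes. Of them cdkn1a lay near the threshold (-1.06). The 3 became 2 with a pseudocount of 5 FPKM and with equal library sums, beside 4.33% and 8.77%. All 3 were also higher in MZ 7 hpf than in WT, by 1.18 (cdkn1ca), 1.23 (cdkn1cb) and 1.83 (cdkn1a) on the log2 scale, together with cdkn1ba at 5.86 FPKM in MZ 7 hpf against 0.39 in WT. These 4 of 5 stood beside 13.9% of all measured genes. However, cdkn1ba, at 0.29 FPKM in MZ 4.3 hpf, counted as measured only through its level in MZ 7 hpf. The count therefore depends in part on that library. Scaled on proteasome genes, 2 of the 4 remained at least 2-fold higher, cdkn1a and cdkn1ba, beside 8.9% of all measured genes. The remaining one, cdkn1bb, went the other way between the mutant libraries, at 19.4 FPKM in MZ 7 hpf and 39.65 in MZ 4.3 hpf, against 24.2 in WT. The medians of the 5 were -1.06 for MZ 4.3 hpf over WT, 1.23 for MZ 7 hpf over WT and 2.89 for MZ 7 hpf over MZ 4.3 hpf.

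The machinery that destroys cyclins stood mostly inside 2-fold as deposited. Of 25 measured genes of the anaphase-promoting complex (APC/C) and of the SCF ubiquitin ligase, 1 was higher and 1 lower in MZ 4.3 hpf than in WT, beside 16.6% and 9.6% of all measured genes. These were ube2s and skp1, both of which lay at the 2-fold threshold and came inside it under several of the settings tried. In MZ 7 hpf over WT 0 were higher and 2 lower, beside 13.9% and 12.5%, and in MZ 7 hpf over MZ 4.3 hpf 2 were higher and 2 lower, beside 13.8% and 22.2%. Scaled on proteasome genes, 6 were lower in MZ 7 hpf over WT and 7 in MZ 7 hpf over MZ 4.3 hpf, where 24.8% and 36.1% of all measured genes were, so neither count exceeded the background. The medians as deposited lay between -0.14 and -0.13. The APC/C activator gene cdc20 stood at 253 FPKM in the MZ 7 hpf library, 298 in MZ 4.3 hpf and 380.2 in WT. The higher pair in MZ 7 hpf over MZ 4.3 hpf were fbxo5, which encodes the APC/C inhibitor Emi1 (115 against 37.6 FPKM), and the ubiquitin-conjugating enzyme gene ube2c (71.9 against 27.2). The APC/C subunit genes cdc16 and anapc5 were the lower pair in MZ 7 hpf over WT, at 22.7 and 6.42 FPKM in MZ 7 hpf against 62.7 and 14.5 in WT.

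Of 19 measured genes of the Rb, E2F and DREAM group, which control transcription through the cell cycle, 3 were higher and 1 lower in MZ 4.3 hpf than in WT, beside 16.6% and 9.6% of all measured genes. The 3 became 1 with a pseudocount of 5 FPKM, by the median of ratios, and with equal sums less the most abundant genes. In MZ 7 hpf over WT 4 were higher and 1 lower, beside 13.9% and 12.5%, and in MZ 7 hpf over MZ 4.3 hpf 4 were higher and 5 lower, beside 13.8% and 22.2%. With 19 genes these counts lie near the background. The atypical repressor gene e2f7 had the order of ccne2, at 24.4 FPKM in the MZ 7 hpf library, 0.39 in MZ 4.3 hpf and 2.25 in WT. Its relative e2f8 stood at 125 FPKM in MZ 7 hpf, 44.0 in MZ 4.3 hpf and 39.2 in WT. Both Rb-like genes of the list were highest in the MZ 7 hpf library. There rbl1 stood at 28.9 FPKM, against 9.29 in MZ 4.3 hpf and 6.84 in WT, and rbl2 at 4.96 FPKM, against 1.45 in MZ 4.3 hpf and 1.26 in WT. In contrast rb1 stood at 54.3 FPKM in MZ 7 hpf, 40.6 in MZ 4.3 hpf and 64.3 in WT. The mitotic regulator genes foxm1 and mybl2a were highest in the MZ 4.3 hpf library. For foxm1 the levels were 16.9 FPKM in MZ 7 hpf, 58.2 in MZ 4.3 hpf and 28.2 in WT, and for mybl2a 21.0 in MZ 7 hpf, 54.5 in MZ 4.3 hpf and 19.0 in WT. The median log2 ratio of the group was 0.39 for MZ 4.3 hpf over WT, 0.19 for MZ 7 hpf over WT and 0.06 for MZ 7 hpf over MZ 4.3 hpf.

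Beyond the A, B, D and E members named at the start, 20 other cyclin genes had a row and 17 were measured. In MZ 4.3 hpf over WT 3 of 17 were at least 2-fold higher and 1 lower, beside 16.6% and 9.6% of all measured genes, so the counts lie near the background. The higher ones were ccni2, at 18.6 FPKM in MZ 4.3 hpf against 1.15 in WT, ccnj, at 28.2 against 5.68, and ccnh, the partner of Cdk7 in the Cdk-activating kinase, at 45.35 against 21.8. The log2 ratio of ccnh lay near the threshold (1.02). The 3 became 2 with a pseudocount of 5 FPKM, by the median of ratios and with equal sums less the most abundant genes. Beside these stood 7.05%, 12.8% and 15.5% of all measured genes. In the MZ 7 hpf library ccni2 stood at 1.45 FPKM, ccnj at 2.42 and ccnh at 13.8, all below their level in MZ 4.3 hpf, and the fourth gene at least 2-fold lower between the mutant libraries was ccnjl, at 51.5 FPKM in MZ 7 hpf against 109.7 in MZ 4.3 hpf. These 4 of 17 are near the background share of 22.2%. The lower one in MZ 4.3 hpf over WT was ccng2, at 3.72 FPKM against 9.95, and it stood at 23.8 in MZ 7 hpf. The F-box cyclin gene ccnf had, like ccnb3, its highest level in the MZ 7 hpf library and nearly equal levels in the others, at 15.7 FPKM in MZ 7 hpf, 3.68 in MZ 4.3 hpf and 3.57 in WT. Among the 17 genes, ccnf and ccng2 were the 2 that stood at least 2-fold higher in MZ 7 hpf than in each of the other libraries, beside 13.9% of all measured genes over WT and 13.8% over MZ 4.3 hpf. Of the other D cyclins ccnd3 was low and even, at 8.03 FPKM in MZ 7 hpf, 7.42 in MZ 4.3 hpf and 5.09 in WT, and ccnd2b did not exceed 0.08. The most abundant was ccng1, a p53 target, at 512 FPKM in MZ 7 hpf, 332 in MZ 4.3 hpf and 621 in WT.

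**Figure D4:**
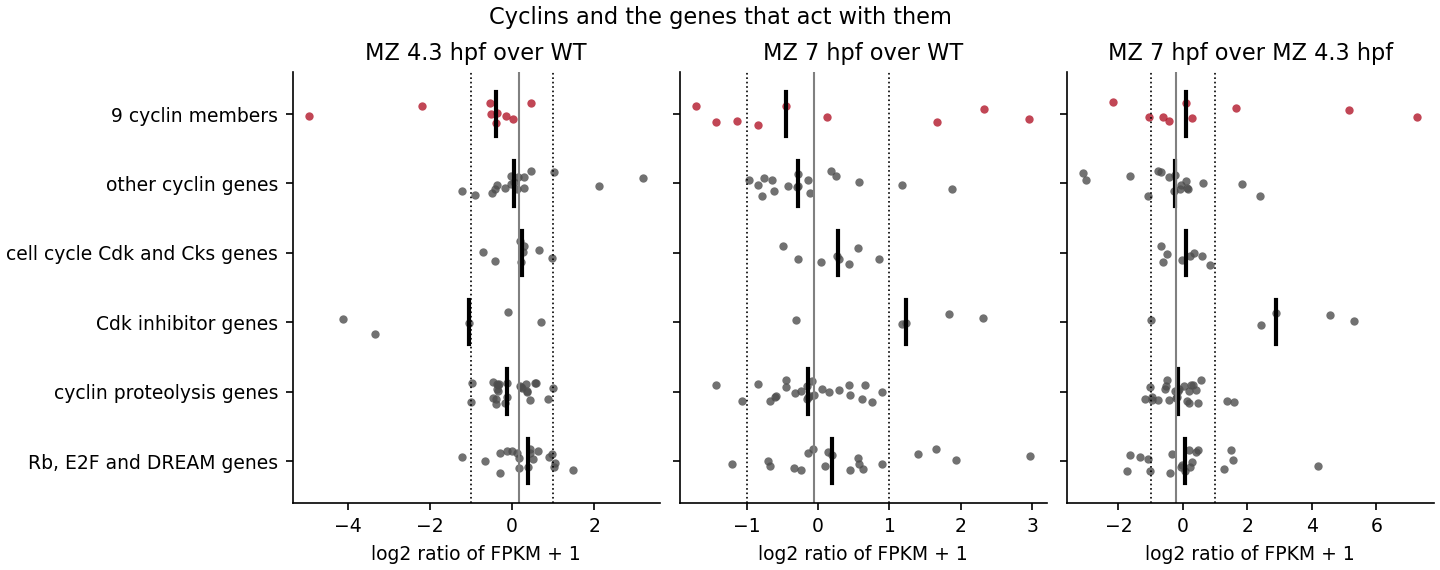
Each dot is the log2 ratio of FPKM + 1 of 1 measured gene, by list and comparison (horizontal scales differ between panels), the black bars are list medians, the grey line is the median of all measured genes and the dotted lines mark 2-fold. The cyclin members reach from -4.93 to 7.26 over the panels, and the Cdk and Cks genes, without scaling, lie inside the dotted lines.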

How the data were processed

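Whole-embryo total RNA was purified on columns, per the labels' protocols. Poly(A) selection and strandedness were not given in any source used. RSEM 1.2.8, Bowtie2 2.2.5 and Trimmomatic 0.36 and the build GRCz11 are named, per the submitters' processing notes, without their steps. The authors deposited FPKM in 1 column per library, rounded to 0.01. No source says how reads shared between paralogs were split. Of 26437 rows, 1051 without values were left out.

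Libraries were grouped by title. Each pair was compared by the log2 ratio of FPKM after adding a pseudocount of 1. The 14306 genes that averaged 1 FPKM or more were called measured, and those 2-fold or more apart were counted. Since groups hold 1 library, no test, error or interval is given. Absolute depth is unknown. Ratios of low values (0.2 to 0.8 FPKM), searched from 0.5 to 2 with a tolerance of 1.5%, were most often 0.99 (MZ 4.3 hpf over WT), 1.04 (MZ 7 hpf over WT) and 1.05 (MZ 7 hpf over MZ 4.3 hpf). In that order these peaks held only 61 of 1153, 60 of 1423 and 48 of 1219 genes, so they do not settle the relative depth.

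The members and the lists were chosen with earlier results of these data known. Of 90 listed names of interacting genes, 84 matched a row and 74 were measured. From each list up to 4 genes with the largest ratio per comparison and up to 3 of the most abundant could be named, and for each cyclin the 3 nearest profiles. Named outside this rule, after their values were seen, were ccnd3, ccnd2b, ccnjl and rb1. Scripts (Python 3.11.15, numpy 2.4.6, pandas 2.3.3, matplotlib 3.10.9) were tested on simulated data.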

Additional observations from a re-analysis of the deposited data

How the results depend on the processing

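Each member's log2 ratio was recomputed with pseudocounts of 0.1 and 5 FPKM and under 4 scalings. These made the library sums equal with all genes or with all but the 1% most abundant, used the median of ratios, or used the proteasome genes. Of 162 such values 150 kept their direction and their side of 2-fold, and no ratio past 2-fold changed sign. The ratio of ccnd2a in MZ 7 hpf over MZ 4.3 hpf lay near 2-fold and passed inside it with a pseudocount of 5 (-0.64), scaling by the median of ratios (-0.82) and equal sums less the most abundant genes (-0.9998), so that the count of lower cyclins there was 1 instead of 2 under each, as it was at a threshold of 4-fold. At 4-fold 0 cyclins, instead of 3, were lower in MZ 7 hpf than in WT, where 1.35% of all measured genes were. Scaling on proteasome genes took ccna1 past 2-fold in MZ 7 hpf over MZ 4.3 hpf (-1.15) and ccnb1 in MZ 7 hpf over WT (-1.30). As deposited, the proteasome genes themselves had a median log2 ratio of 0.51 for MZ 7 hpf over WT. The ratios of ccnd1 ranged from -5.62 to -3.57 for MZ 4.3 hpf over WT, 1.87 to 2.41 for MZ 7 hpf over WT and 5.84 to 7.96 for MZ 7 hpf over MZ 4.3 hpf. Shares of the cyclin FPKM do not depend on the scaling.

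Counts over the 74 interacting genes depended on the settings more. Higher genes in MZ 4.3 hpf over WT numbered 7, against 3 with a pseudocount of 5, 3 by the median of ratios, 3 with equal sums less the most abundant genes and 2 at 4-fold. Of all measured genes 16.6% were higher, against 7.05%, 12.8%, 15.5% and 2.48% in the same order of settings. Lower genes there numbered 6, against 2 with a pseudocount of 5 and 2 at 4-fold, where the shares of all measured genes were 9.6%, 4.33% and 3.4%. In MZ 7 hpf over WT 10 were higher, against 2 at 4-fold, and 3 lower, against 15 after scaling on proteasome genes and 0 at 4-fold. The shares of all measured genes were 13.9% against 4.17% for higher, and 12.5% against 24.8% and 1.35% for lower. In MZ 7 hpf over MZ 4.3 hpf 12 were higher, against 6 at 4-fold, and 11 lower, against 7 with a pseudocount of 5, 22 on proteasome genes, 6 by the median of ratios and 2 at 4-fold. There the shares of all measured genes were 13.8% against 7.52% for higher. For lower they were 22.2% against 12.7%, 36.1%, 16.4% and 4.68%. Each share moved in the same direction as its count. With the proteasome scaling 24.8% of all measured genes were lower in MZ 7 hpf over WT, and the lower genes there were 6 instead of 2 for cyclin proteolysis, 6 instead of 0 for the other cyclin genes and 3 instead of 1 for the Rb, E2F and DREAM group. In MZ 7 hpf over MZ 4.3 hpf that share was 36.1%, and 7 instead of 2 genes of cyclin proteolysis were lower. A threshold of 4-fold is stricter by construction, and a larger pseudocount brings every ratio closer to equality. Each scaling divides a library by a constant, so it moves the ratios of abundant genes in a comparison nearly together. With the pseudocount, genes with a low level can move otherwise. Scaled on proteasome genes, ccna1 in MZ 4.3 hpf over WT went from -0.52 to -0.45, and ccnd1 from -4.93 to -4.95. No filter and a filter at a mean of 5 FPKM moved none of the counts over the cyclins or over all 74 genes by more than 1.5 times. No paired analysis was possible because each group has 1 library.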
